A study of Mus musculus with 2 samples.

Results

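Interferon-stimulated genes are described here in RAW264.7 cells, an established mouse macrophage line derived from an ascites tumor induced by Abelson murine leukemia virus in a male BALB/c mouse. The list held 37 genes, chosen by name with earlier results of these data known: the interferon gene *Ifnb1*, the receptor genes *Ifnar1* and *Ifnar2*, and genes that interferon induces. Each of the 37 had at least 1 probe, out of 20651 genes that could be named on the array, and 36 were well above background on both arrays. *Ifnb1* was well above background on the vehicle array only. One culture received vehicle control and the other IR-61, a heptamethine cyanine dye that enters mitochondria, both for 24 h; the dose of 10 μM comes from a figure legend of the study and not from the sample labels. RNA of each culture was read on 1 single-color Agilent array, so each condition had 1 sample and no test between the conditions was possible.

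Type I interferons are secreted when a cell senses foreign nucleic acid, through RNA helicases in the cytosol, DNA sensors or Toll-like receptors. Interferon binds a receptor made of Ifnar1 and Ifnar2, whose kinases Jak1 and Tyk2 switch on transcription factors. A complex that holds Stat2 and Irf9 binds the interferon-stimulated response element (ISRE), whereas the gamma-activated site (GAS) is bound mainly after interferon-γ. Macrophages are known to keep a low level of this response without infection. The question asked of the arrays in the study was how IR-61 changes macrophage activation, and for the interferon genes it becomes whether they were lower or higher after IR-61.

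The differences below are on the log2 scale, IR-61 minus vehicle, after the log2 signal of each array was reduced by its own 75th percentile. Across the 16882 genes measured on both arrays the median difference was 0.10, with an SD across genes of 0.44, and this overall level is what each member has to be read against. Without scaling the IR-61 array was brighter by 0.49, so that every difference would be higher by this amount. The only measurable error is the spread between spots of probes printed several times. For a probe printed once, this spread gave a difference an SD of 0.094 for bright genes, 0.229 at intermediate signals and 0.457 for the dimmest. It does not include the variation between cultures. Of the macrophage markers with a probe, 9 of 9 were well above background on both arrays, with a summed signal, before scaling, of 428000 with vehicle and 631000 with IR-61. After scaling 6 of these 9 had a negative difference, with a median of −0.23 and a range from −0.98 (*Cd14*) to 1.03 (*Adgre1*). The fibroblast markers *Col1a1*, *Col1a2*, *Col3a1*, *Pdgfra* and *Dcn* were also well above background on both arrays (5 of 5), with sums of 64700 and 110000 and a median difference of 0.099 after scaling, while *Cd3g*, *Epcam* and *Cdh1* were dim on both. Of the other marker lists, 4 of 4 plasmacytoid dendritic cell markers (*Bst2*, also a member, among them), 5 of 6 T cell, 5 of 5 B cell and 2 of 4 epithelial markers were measured on both arrays, with summed signals of 61000 and 78400, 2430 and 3540, 907 and 746, and 262 and 268. The part of these signals in the values below was not tested. In RNA of a whole culture, fewer cells of a type and less RNA per cell cannot be told apart.

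The letters of the ISRE and the GAS were looked for in the RefSeq promoter table of the mouse assembly GRCm38.p6, in the 250 bases before the transcription start. The ISRE was searched as GAAA, any 2 bases and again GAAA, and the GAS as TTCNNNGAA, which reads the same on both strands; both strands were searched for the ISRE. Of the members, 31 had a promoter in the table, and 14 of them (45.2%) held the ISRE letters, against 3.46% of the 27025 genes in the table. The GAS letters were found in 10 of the 31 (32.3%) and in 8.13% of all genes. *Oas2*, *Ifi204*, *Parp14*, *Zbp1*, *Dhx58* and *Usp18* had no entry in the table. The stretches below are those of *Gbp2*, the member that was lower by the most, and of the brightest members with either motif. They are written from 5′ to 3′ on the strand of the gene, with the motif in capitals. A pair of TTTC is the ISRE on the other strand, and overlapping copies run together.
Gbp2, ISRE, chr3:142620579-142620638, plus strand: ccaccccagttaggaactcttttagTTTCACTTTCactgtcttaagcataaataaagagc
Gbp3, ISRE, chr3:142559974-142560039, plus strand: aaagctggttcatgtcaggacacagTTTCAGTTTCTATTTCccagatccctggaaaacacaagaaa
Oas1a, ISRE, chr5:120907526-120907570, minus strand: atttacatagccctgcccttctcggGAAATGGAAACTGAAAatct
Bst2, ISRE, chr8:71537562-71537627, minus strand: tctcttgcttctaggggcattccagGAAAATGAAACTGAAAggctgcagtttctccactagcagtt
Samhd1, GAS, chr2:157135298-157135346, minus strand: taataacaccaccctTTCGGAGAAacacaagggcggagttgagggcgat
Ifnar2, GAS, chr16:91372544-91372602, plus strand: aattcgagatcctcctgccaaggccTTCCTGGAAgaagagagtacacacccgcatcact

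For comparison, stretches of further ISRE-bearing members that differed in opposite directions are shown. They were chosen after their values were seen. *Isg15*, *Ifit1* and *Gbp7* were lower with IR-61, and *Ifit3* and *Oas3* were higher.
Isg15, chr4:156200850-156200921, minus strand: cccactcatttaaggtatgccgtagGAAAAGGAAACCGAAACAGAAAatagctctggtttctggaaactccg
Ifit1, chr19:34640760-34640838, plus strand: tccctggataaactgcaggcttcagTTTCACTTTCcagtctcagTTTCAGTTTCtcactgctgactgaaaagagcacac
Gbp7, chr3:142530258-142530317, plus strand: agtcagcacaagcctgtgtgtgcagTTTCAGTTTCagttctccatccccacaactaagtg
Ifit3, chr19:34583348-34583441, plus strand: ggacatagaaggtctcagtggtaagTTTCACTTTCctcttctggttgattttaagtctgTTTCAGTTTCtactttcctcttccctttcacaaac
Oas3, chr5:120777700-120777759, minus strand: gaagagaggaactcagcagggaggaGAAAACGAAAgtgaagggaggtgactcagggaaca
That the same letters stood before lower and before higher genes here follows from how these stretches were chosen. Of the 14 members with the ISRE letters, 8 had a negative and 6 a positive difference, where 38.8% of all measured genes were negative and 61.2% positive, with a median of −0.12 and a range from −1.06 to 0.86. The 16 measured members with a promoter but without these letters had a median of 0.066, from −0.62 to 0.72. A match of letters is a description and says nothing about binding.

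The median of the members and their counts past 2-fold were near those of all genes on these arrays. Their median difference was 0.055, against 0.10 for all measured genes, and the SD across the 36 members was 0.51. A negative difference was found in 15 of the 36 (41.7%), against 38.8% of all genes, and a positive one in 21, against 61.2% of all genes. By 2-fold or more, 1 member was lower, *Gbp2*, where 1.39% of all genes were, and 1 was higher, *Oas2*, where 1.99% were. The split of all genes depended on the scaling, with 1.75% lower and 1.47% higher when each array was scaled by its median, and 0.426% lower and 12.8% higher without scaling. These shares are near those of all genes and are no result about the list. Counted by the spread between spots, 13 members were higher by more than 2 SDs (36.1%, against 23.7% of all genes) and 8 were lower by more than 2 SDs (22.2%, against 14.2%). This limit was chosen after the values were seen, and 22 of the 36 members had a vehicle log2 signal above 10, where the spot SD is smallest. Signals in each array and the differences are plotted by role.

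**Figure D1:**
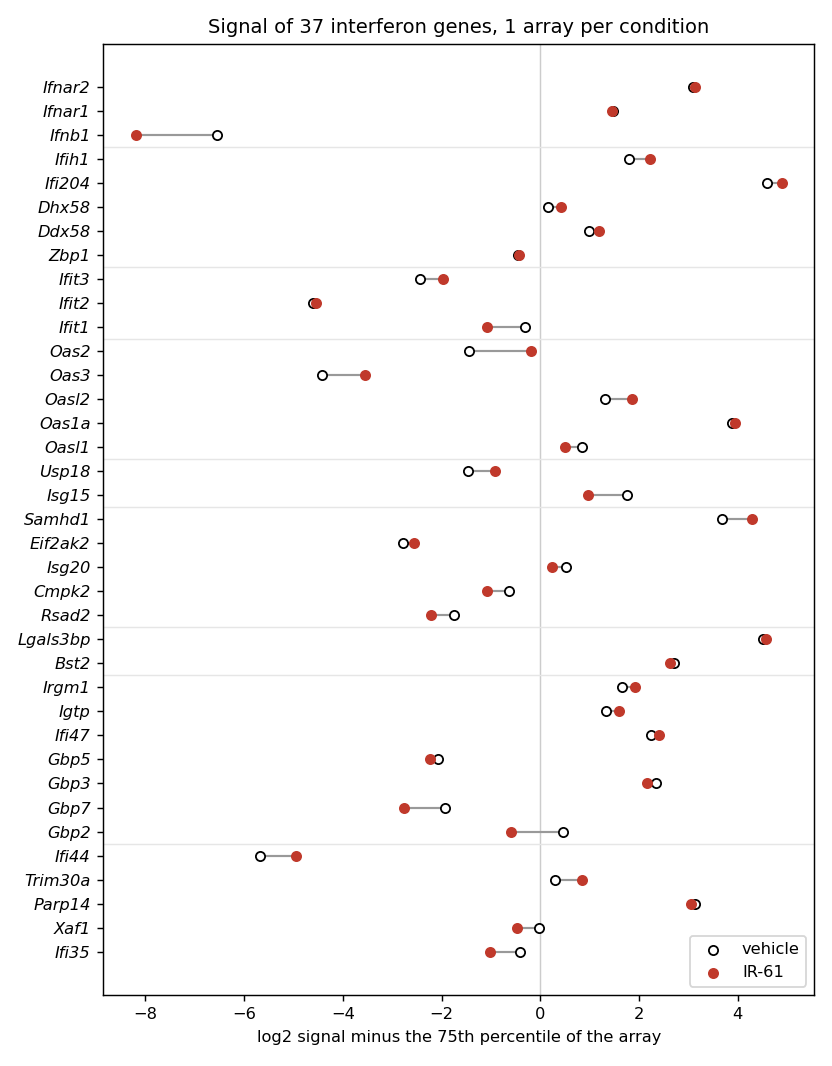
Log2 signal minus the 75th percentile of the array for each of the 37 members, with vehicle (open points) and IR-61 (red points), 1 array each, grouped by role. The longest lines among members measured on both arrays are those of *Oas2* (to the right) and *Gbp2* (to the left), and *Ifnb1* is the only member not well above background with IR-61; levels of different genes depend on their probes and are not to be compared.

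**Figure D2:**
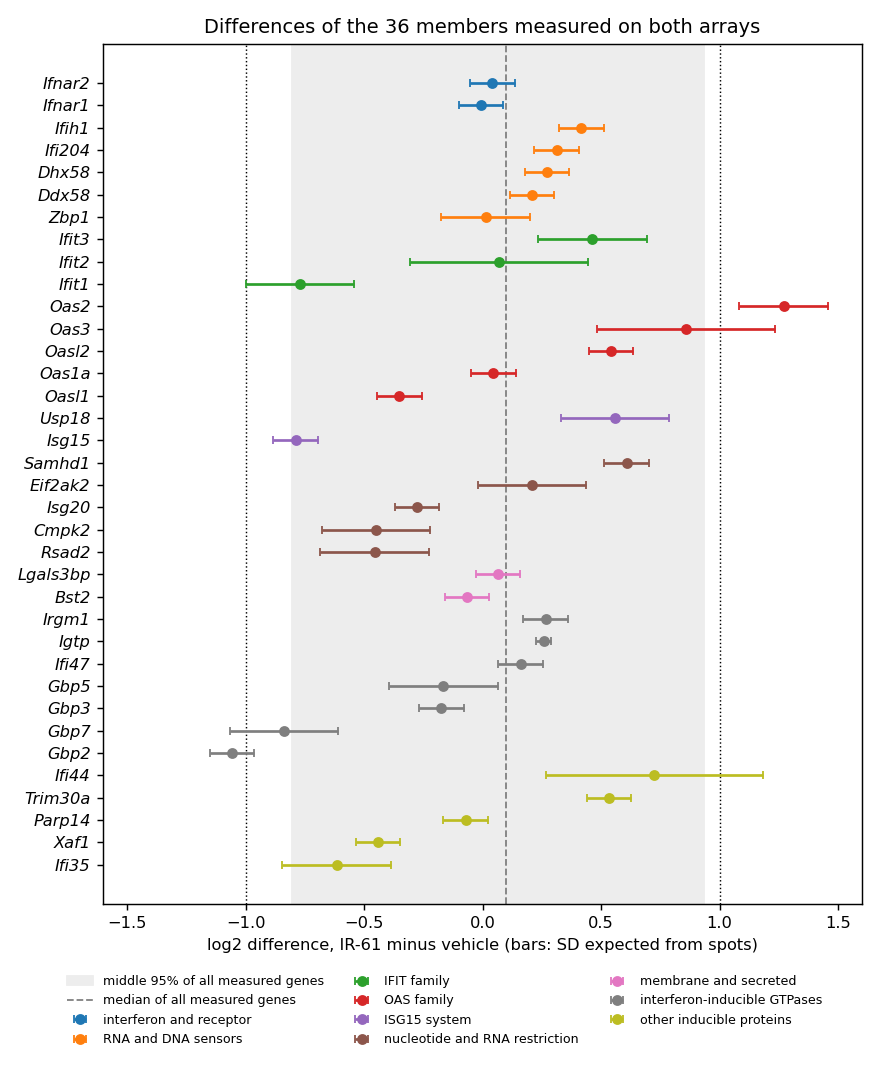
Log2 difference, IR-61 minus vehicle, of the 36 members measured on both arrays, with bars for the SD that the spread between spots gives a difference; dotted lines mark 2-fold. The gray band, from −0.81 to 0.93, holds the middle 95% of all measured genes, and *Oas2* at 1.27, *Gbp2* at −1.06 and *Gbp7* at −0.84 lie outside it.

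*Ifnb1* encodes interferon-β, the interferon that macrophages make first upon sensing. Its signal was 13.5 with vehicle, just above the lowest signal of 12.8 among probes well above background on that array. With IR-61 its signal was 6.04, not well above background. It was therefore at least 1.27-fold lower, a log2 bound of −0.34 that is smaller in size than the SD of 0.457 expected from spots at such dim signals. Among the receptor genes, *Ifnar2* had signals of 10789 with vehicle and 15572 with IR-61, a difference of 0.041. The brightest of the 3 probes of *Ifnar1* read 3481 and 4865, a difference of −0.006. Both values lay within the spot SD of 0 and below the median of all genes. The remaining probes of *Ifnar1* differed from the brightest, with −0.98 from signals of 1480 and 1050, and −1.28 from 183 and 106. All 3 probes were designed to the same RefSeq transcript, so the arrays did not settle the direction for this gene.

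The 5 cytosolic sensors all had positive differences on their brightest probes, 4 of them above the median of all genes, where 61.2% of all measured genes were positive. *Ifih1* (also called MDA5) and *Ddx58* (RIG-I) are helicases that sense duplex RNA, and *Dhx58* is their relative without a signaling domain. *Ifih1* read 4398 with vehicle and 8234 with IR-61, a difference of 0.42. *Dhx58* read 1405 and 2379, a difference of 0.27. *Ddx58* read 2493 and 4042, a difference of 0.21, and its dimmer probe gave 0.34. *Ifi204*, which encodes a DNA-binding protein of the HIN-200 family, read 30304 and 52785, a difference of 0.31. *Zbp1*, whose product binds nucleic acid in the Z form and can trigger necroptosis, read 924 and 1310, a difference of 0.014. All but *Zbp1*, 4 of the 5, were higher by more than 2 spot SDs, as were 23.7% of all genes, with folds between 1.16 and 1.33. The direction of *Ifih1* depended on the probe: its second probe read 69.2 and 59.6, a difference of −0.70, and with the mean of detected probes the gene was at −0.14. The same held for *Zbp1*, whose second probe, designed to another transcript, read 108 and 119, a difference of −0.345. With the mean of detected probes *Zbp1* was at −0.165.

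The IFIT proteins bind foreign RNA and hinder its translation. Their genes lie in 1 cluster on chromosome 19, and no protein-coding gene lies between *Ifit2* and *Ifit3*. *Ifit1* was lower, with a signal of 1015 with vehicle and 834 with IR-61, a difference of −0.77 (1.71-fold). *Ifit3* was higher, with 234 and 453, a difference of 0.46 (1.38-fold), which is 2.02 times its spot SD of 0.229. *Ifit2* read 51.9 and 76.3, a difference of 0.068 that is within its spot SD of 0.376. *Ifit1* was lower under each of the 12 other settings tried, between −0.85 and −0.28, and *Ifit3* was higher under each, between 0.31 and 0.95. *Ifit3* has a close copy, *Ifit3b*, and binding of its transcript to the *Ifit3* probe was not tested.

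The highest difference of all members was in the OAS family. Oligoadenylate synthetases make short adenylate chains upon binding duplex RNA, and these chains activate RNase L. *Oas2* read 461 with vehicle and 1561 with IR-61, a difference of 1.27 and a 2.41-fold higher signal. This was 6.74 times its spot SD, and 99.2% of all measured genes had a lower difference, which put *Oas2* at rank 131 from the top. Its neighbor *Oas3* read 59.1 and 150, a difference of 0.86 (1.81-fold), but this value rests on a dim signal and was 0.31 with normexp background correction. *Oasl2* read 3129 and 6390, a difference of 0.54 (1.46-fold). *Oas1a* read 18716 and 27092 on its brightest probe, a difference of 0.045, and 2720 and 2848 on its second probe, a difference of −0.42. *Oasl1*, whose product in mouse restrains the translation of Irf7, was lower, with 2266 and 2493 and a difference of −0.35, although it was higher by 0.14 without scaling. *Oasl1* and *Oasl2* are direct neighbors on chromosome 5 and lay on opposite sides of 0. *Oas2* stayed past 2-fold under each of the 12 settings, between 1.12 and 1.76.

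*Isg15* encodes a ubiquitin-like protein that is attached to others during the response, and Usp18 removes it and also restrains signaling at the receptor. The genes of this pair differed in opposite directions. *Isg15* read 4267 with vehicle and 3465 with IR-61 on its brightest probe, a difference of −0.79 (1.73-fold lower). Its second probe read 394 and 225, a difference of −1.30 (2.46-fold lower), in the same direction. Only 2.65% of all measured genes had a lower difference than the brightest probe of *Isg15*. With the mean of its probes *Isg15* passed 2-fold, at −1.04. *Usp18* read 456 and 943, a difference of 0.56 (1.47-fold higher), which was 2.44 times its spot SD.

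Among the proteins that act on nucleotides and RNA, *Rsad2* (viperin) makes an altered nucleotide that stops viral polymerases, and *Cmpk2*, the gene next to it on chromosome 12, encodes a nucleotide kinase. *Rsad2* read 374 and 382, a difference of −0.46, and *Cmpk2* read 813 and 834, a difference of −0.45. The neighbors had nearly the same value, each just under 2 spot SDs, and without scaling both were close to 0, at 0.032 and 0.038. *Samhd1*, which breaks down the building blocks of DNA synthesis, read 16207 and 34652, a difference of 0.61 (1.52-fold higher), or 0.13 with the mean of detected probes. A second *Samhd1* probe, designed to another transcript, read 4130 and 4568, a difference of −0.34. *Isg20*, an exonuclease gene, read 1802 and 2087, a difference of −0.28, and its second probe gave −0.68; without scaling the brightest probe was higher by 0.21. *Eif2ak2* (PKR), the kinase that halts translation upon binding duplex RNA, read 185 and 299, a difference of 0.21 that is within its spot SD of 0.229.

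Tetherin, encoded by *Bst2*, holds budding virus at the cell surface, and *Lgals3bp* encodes a secreted glycoprotein that binds galectins. *Bst2* read 8195 with vehicle and 10982 with IR-61, a difference of −0.066, and *Lgals3bp* read 28747 and 42199, a difference of 0.065. Both were within the spot SD of 0.094. The second probe of *Lgals3bp* read 3885 and 3841, a difference of −0.50.

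Guanylate-binding proteins (Gbp) attack vacuoles that hold microbes and assist inflammasome activation, and the immunity-related GTPases *Irgm1*, *Igtp* and *Ifi47* act at vacuoles of intracellular parasites. Of these 7 GTPase genes 4 had a negative difference, where 38.8% of all genes did. *Gbp2* read 1736 with vehicle and 1169 with IR-61, a difference of −1.06 and a 2.08-fold lower signal, 11.2 times its spot SD. *Gbp7* read 331 and 260, a difference of −0.84 (1.79-fold lower). *Gbp3* read 6403 and 7964, a difference of −0.17, and *Gbp5* read 299 and 374, also a difference of −0.17, both within 2 spot SDs of 0. These 4 genes lie in 1 cluster on chromosome 3, with *Gbp2b* as the only other protein-coding gene between them, and had 4 negative differences. Gbp genes outside the members went both ways. *Gbp9* was at 0.48 and *Gbp4* at 0.335, the latter within its spot SD of 0.457. *Gbp6* was at −0.68 on the brighter of 2 probes, and *Gbp8* had only a bound, on the higher side. Without scaling *Gbp3* and *Gbp5* were higher by 0.32 each, while *Gbp2* and *Gbp7* stayed lower, at −0.57 and −0.35.

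The 3 immunity-related GTPases among the members had positive differences under each setting tried. Under the main setting 61.2% of all measured genes were positive. Genes of this family outside the members differed in direction. *Irgm2* was at 0.16 and *Tgtp2* at 0.33, whereas *Iigp1* was at −0.15 and *Tgtp1* at −0.22. *Tgtp2* and *Iigp1* had 2 probes each, and the brightest is given. *Irgm1* read 3975 and 6705, a difference of 0.27, and 0.050 on its second probe. *Ifi47* read 5986 and 9391, a difference of 0.16. *Igtp* was the 1 member printed 10 times. Its scaled log2 signal was 1.33 ± 0.08 (SD between 10 spots) with vehicle and 1.59 ± 0.09 (SD between 9 spots) with IR-61. The spots of both arrays overlapped slightly, since the lowest with IR-61 was 1.43 and the highest with vehicle 1.46. The 3 members lay between 0.061 and 0.17 above the median of all measured genes.

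Of the remaining members, *Trim30a*, from a family of ubiquitin ligases, read 1557 with vehicle and 3161 with IR-61, a difference of 0.53 (1.45-fold higher). *Ifi44* read 24.8 and 57.4, a difference of 0.72, but these are dim signals and with normexp background correction it was 0.083. *Ifi35* was lower, with 954 and 873, a difference of −0.62 (1.53-fold). *Xaf1*, which encodes a partner of an inhibitor of apoptosis, had a difference of −0.44 on its brightest probe, from 1243 and 1284. Its second probe read 44.1 and 104, a difference of 0.75. *Parp14*, encoding an enzyme that transfers ADP-ribose, read 11069 and 14779, a difference of −0.071 that is within its spot SD.

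Several members were read by more than 1 probe, and the probes often disagreed. Of 13 further probes in 12 members, 10 had a lower difference than the brightest probe of the gene (76.9%), against 66.2% of 4950 further probes over all genes. The sign was opposite in 6 of the 13 (46.2%, against 42.3% over all genes), those of *Oas1a*, *Ifih1*, *Zbp1*, *Xaf1*, *Samhd1* and *Lgals3bp*. In 8 of the 13 (61.5%, against 30.2%) the probes lay further apart than 2 SDs expected from spots. The median of a further probe minus the brightest was −0.47 for members and −0.17 for all genes. *Isg15*, *Isg20*, *Ddx58*, *Irgm1* and *Cmpk2* had probes of the same sign. So did *Ifnar1*, but its brightest probe was at −0.006 and its further probes at −0.98 and −1.28. For *Oas2* and *Gbp2* no second probe was named on the array.

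**Figure D3:**
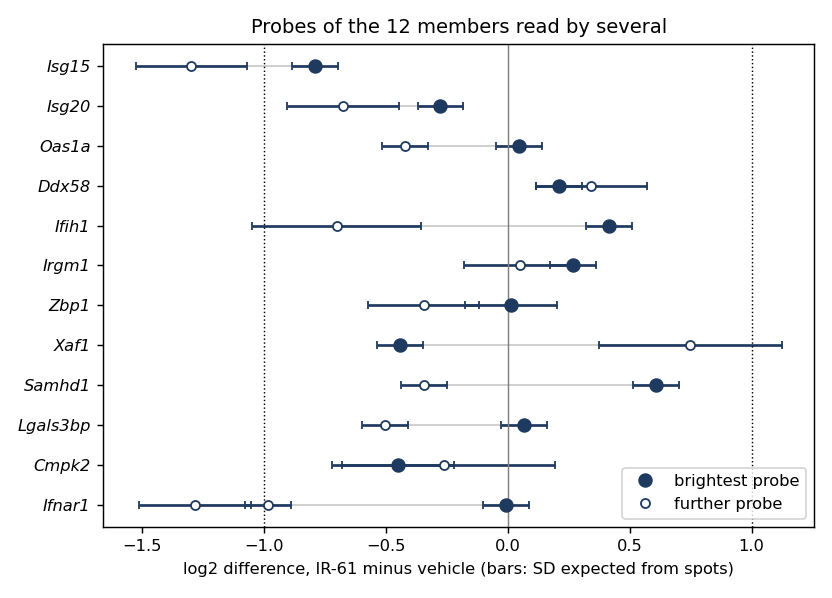
Log2 difference, IR-61 minus vehicle, of every probe of the 12 members read by several probes; filled points are the brightest probe, open points the further probes, bars the SD expected from spots, and dotted lines 2-fold. Open points lie to the left of the filled point for 10 of 13 further probes, and *Xaf1*, at −0.44 and 0.75, is the widest exception.

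Genes of the interferon pathway outside the members were then compared. They were kinases of the receptors (3), transcription factors of the response (10), genes of sensing and induction of interferon (13) and negative regulators (6). Interferon-γ and its receptor (3) were also among them. Of 35 such genes with a probe, 34 were measured on both arrays, and *Ifng* was not well above background on either. Their median difference was −0.042, against 0.10 for all measured genes. Of the 34, 2 were lower by 2-fold or more (5.88%, against 1.39% of all genes) and 0 were higher. The lower ones were *Ikbke*, a kinase that activates Irf3, which read 1510 and 1004, a difference of −1.08, and *Irf5*, a factor that induces cytokine genes downstream of Toll-like receptors, which read 7244 and 5045, a difference of −1.01. The third lowest was *Socs3*, an inhibitor of cytokine receptors, at −0.80. The highest was *Cgas*, the sensor of cytosolic DNA, at 0.72. Next were *Tlr7*, a receptor for single-stranded RNA, at 0.55, and *Trim25*, a ligase that activates RIG-I, at 0.54. *Cgas* had 3 probes and *Tlr7* 2, and only the brightest of each is given.

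The 3 kinases of the receptors had negative differences. Of the 10 transcription factors of the response, 5 had a negative and 5 a positive difference, where 38.8% of all measured genes were negative. *Jak1* read 9908 and 13350, a difference of −0.058, and *Stat2* read 4739 and 6683, a difference of 0.007, both within the spot SD. *Tyk2* read 388 on both arrays, a difference of −0.49 after scaling, 2.13 times its spot SD of 0.229. A lower difference was found in 7.93% of all measured genes. *Irf9* read 4701 and 9127, a difference of 0.47 (1.38-fold higher), 4.96 times its spot SD. *Irf7*, a factor that amplifies interferon production, was read by a dim probe, with signals of 29.0 and 43.6, and its difference of 0.096 was within the spot SD of 0.457.

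**Figure D4:**
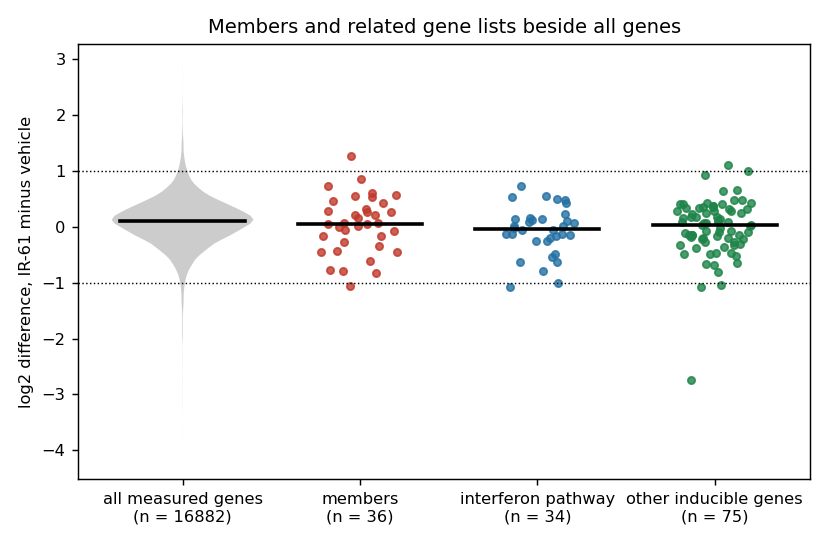
Log2 difference, IR-61 minus vehicle, of all 16882 measured genes (gray shape), of the 36 members, of 34 further genes of the interferon pathway and of 75 other interferon-inducible genes; each point is 1 gene, black bars are medians and dotted lines 2-fold. The medians, at 0.10, 0.055, −0.042 and 0.038, lie close together, and the single point far below the rest is *Cd69* at −2.74.

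The direction of several members depended on the scaling of the arrays. Of the 36 measured members, 20 kept the sign of their difference under each of the 12 other settings for scaling, background, probes and dim signals (*Ifi44* under the 11 that left it a value), 7 changed sign only without scaling, and 9 changed sign under at least 1 other setting. The members beyond 0.5 in size kept their sign under each. Relative to the median of all genes under the same setting, *Oas2* lay between 1.15 and 1.25, and *Gbp2* lay between −1.16 and −1.0.

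**Figure D5:**
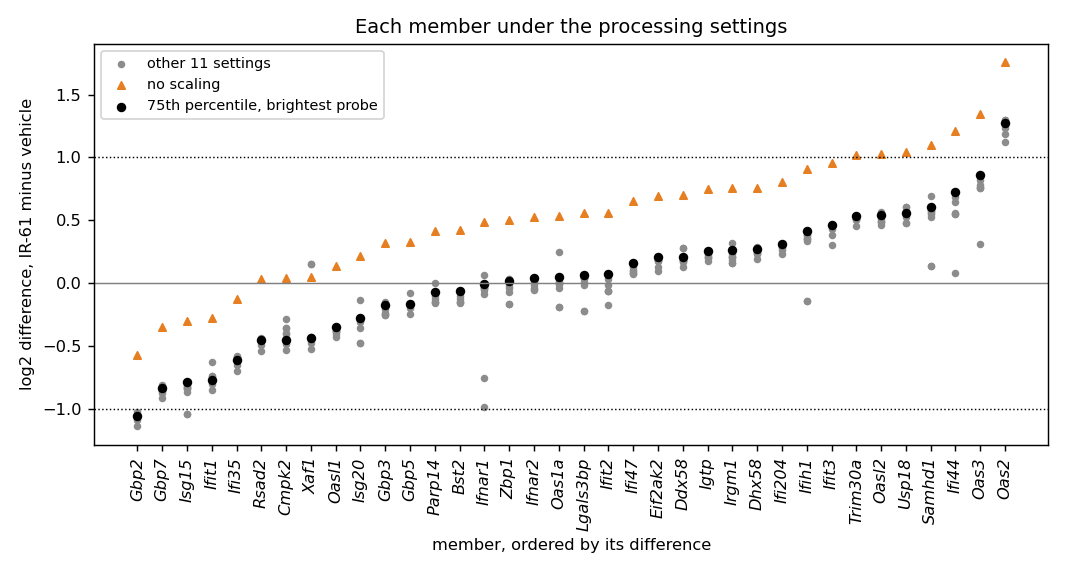
Log2 difference, IR-61 minus vehicle, of the 36 measured members, ordered by their main value (black), under no scaling (orange triangles) and the other 11 settings (gray); dotted lines mark 2-fold. Triangles lie about 0.49 above the black points, *Oas2* stays above the upper dotted line under every setting, and *Gbp2* crosses the lower one only without scaling.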

How the data were processed

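The authors deposited the scanner output of 2 single-color Agilent arrays, 1 per condition, with the intensity of each spot after background subtraction and detrending within the array and without scaling between arrays. The file headers name Feature Extraction 11.0.1.1, the labels 11.0.0.1. They also deposited a table of log2 values whose normalization is not stated and whose columns share their quartiles. Deposited flags of other kinds, 0 or 1, mark outlier, saturated and well-above-background spots.

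After control and outlier spots had been removed, the log2 intensity was averaged over the spots of a probe, and the array's 75th percentile was taken off. Names came through RefSeq accessions in a gene table of GRCm38.p6, used for names and neighbors only because the array design gives mm9. Of 39419 probes 27218 were named. Each gene was read by its brightest unsaturated probe, and no spot was saturated. A gene well above background on 1 array has only a bound, for which the dim array was given the lowest signal well above background there, or the gene's own if higher. The spot SD came from probes printed 10 times. With 1 array per condition there was no test, and the number of arrays limits the precision.

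The members and gene lists were chosen with earlier results of these data known. Every member is named. From the pathway list and the other interferon-inducible genes come the 3 largest rises and falls and *Stat2*, *Irf7*, *Irf9*, *Jak1* and *Tyk2*. Values of *Irgm2*, *Tgtp1*, *Tgtp2*, *Iigp1*, *Gbp4*, *Gbp6*, *Gbp8*, *Gbp9*, *Ifit1bl1* and *Cxcl9* were added outside this rule. A further gene that the rule names is not reported here. Promoters printed are those of members with a motif, past 2-fold first and then the brightest, at most 6, plus 5 chosen later. The steps were tested on simulated arrays. Alternatives were other scalings (median, detected probes, quantile, loess with a span of 0.3, none), the deposited log2 values, normexp with an offset of 50 on the median signal, other rules for probes, outlier spots kept, no filter, a signal minimum of 32, and a 3-fold limit. For normexp, 4 spots with a local background above their signal were given the median background. Normexp was run in limma 3.58.1 (R 4.3.3), loess in statsmodels 0.14.6, and the rest in Python 3.11.15 (pandas 2.3.3, numpy 2.4.6, matplotlib 3.10.9).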

Additional observations from a re-analysis of the deposited data

How the results depend on the processing

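No paired analysis was possible because vehicle and IR-61 share only 1 replicate number, with a single array each. The 1 member lower by 2-fold or more, *Gbp2*, and the 1 higher, *Oas2*, were also the only ones with scaling by the median, by detected probes, by quantiles or by loess, with the deposited log2 values, with normexp, with outlier spots kept and with a signal minimum of 32. Without scaling 0 members were lower and 7 higher, and the median of the members was 0.54, beside 0.59 for all genes. That median was 0.45 for the pathway genes and 0.53 for the other inducible genes. The shift follows from the brighter IR-61 array. *Isg15* was lower by 2-fold as well with the mean of detected probes (2 members lower), *Ifnb1* without a filter on dim probes (2 lower), and both with the median of all probes (3 lower), which moved the median of the members to −0.066. With a 3-fold limit 0 members were lower and 0 higher. Of 431 values of members under the alternatives, 64 moved beyond the spot SD, 36 of them without scaling. Among members measured on both arrays *Ifnar1* moved the furthest, to −0.98 with the median of all probes. The alternatives for the pathway genes and the other inducible genes were added after seeing the data. Signals near background limit *Ifnb1*, *Ifi44*, *Oas3*, *Ifit2* and *Irf7*.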

Other observations

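A list of 86 other genes that interferon can induce held 79 with a probe, of which 75 were measured on both arrays. Their median difference was 0.038, beside 0.10 for all measured genes. By 2-fold or more, 3 were lower (4.0%, against 1.39% of all genes) and 1 was higher (1.33%, against 1.99%). This list was chosen with earlier results of these data known, and the study had reported *Cd69* as reduced in its microarray. The lowest was *Cd69*, an early activation marker, at −2.74, from signals of 360 with vehicle and 75.6 with IR-61. *Cxcl10*, a chemokine that attracts T cells, followed at −1.08, from 2624 and 1746. *Tap1*, a subunit of the peptide transporter of antigen presentation, came next at −1.04, from 211 and 144 over 10 spots each.

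The highest of the genes measured on both arrays was *Plac8*, 2.14-fold higher from 359 and 1080 on the brighter of its 2 probes. *Fcgr1*, the high-affinity receptor for IgG, followed at 0.99, and *Oas1c*, which lies in the cluster between *Oas3* and *Oas1a*, at 0.92. *Fcgr1* read 2795 with vehicle and 7803 with IR-61. For *Ifit1bl1*, which lies between *Ifit3* and *Ifit1*, and for *Gbp8* only a bound can be given, since neither probe was well above background with vehicle. The bounds were 3.72-fold and 3.50-fold higher, from 1 spot per array, with dim signals of 66.8 and 64.1 with IR-61. The spot SD of each log2 difference was 0.376, and the bounds do not include it. Values of these genes under other settings, normexp among them, were not computed. *Cxcl9* was also not well above background with vehicle, and its log2 bound was 0.003. Binding of transcripts from close copies within the Ifit, Oas and Gbp families to these probes was not tested.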
